A study of Mus musculus with 12 samples.

Results

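The comparison described here sets all 6 arrays from mice that received a hairpin against Uhrf1 (shUhrf1) beside all 6 arrays from mice that received a scrambled hairpin (shControl), with the surgery as a factor, and asks which genes differed in the same way under both surgeries. It uses 12 of the 12 arrays of the series, 3 in each of 4 groups: TAC with shUhrf1, TAC with shControl, sham with shUhrf1 and sham with shControl. All mice were male C57Bl6/J, labelled as 8 weeks old. Pups of 10 days had received AAV9, an adeno-associated virus that infects heart muscle, encoding sh-Uhrf1 #1 or the scrambled shRNA, and later had transverse aortic constriction (TAC, surgery that constricts the aortic arch and puts the left ventricle under pressure) or sham surgery, with RNA taken at 1 week. All 4 groups therefore carried the virus and a hairpin. The series used 1 hairpin against Uhrf1, so effects of its sequence on other transcripts cannot be told apart from effects of Uhrf1. RNA came from cardiomyocytes isolated from the left ventricle, and Illumina bead arrays gave an intensity and a detection p-value for each probe.

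UHRF1 recognises hemimethylated CpG sites on newly replicated DNA and histone H3 tails that carry methylated lysine, and it brings the maintenance methyltransferase DNMT1 to such sites. It is best known from dividing cells, where its loss lowers DNA methylation and can let silenced repeats and germline genes be transcribed. Cardiomyocytes of the adult mouse divide rarely, and pressure overload makes them enlarge and express again the genes of the fetal heart. DNA methylation was not measured on these arrays.

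The arrays differed in how many probes they detected at a detection p under 0.01. TAC shUhrf1 arrays detected 14654.7 ± 236 probes and TAC shControl arrays 13912 ± 590 (SD, n = 3 each). Sham shUhrf1 arrays detected 13361.7 ± 374 and sham shControl arrays 12720 ± 360, so the mean was higher with shUhrf1 under both surgeries. Of 45281 probes, 15118 were detected on at least 3 arrays and were tested, and those with a single gene name stood for 8745 genes. Defining cardiomyocyte genes such as Myh6, the alpha myosin heavy chain, were detected on all 12 arrays, and markers of other cells were detected too. The design text names 4 samples in triplicate, and no label says whether a group's 3 arrays are 3 animals. The p-values therefore speak for the spread among these arrays, which could be technical spread.

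The target of the hairpin was checked first. Uhrf1 had log2 intensities of 4.68, 5.34 and 6.06 on TAC shUhrf1 arrays, against 6.14, 7.11 and 6.89 on TAC shControl arrays. Sham shUhrf1 arrays had 4.74, 4.41 and 4.46, against 4.98, 4.89 and 4.76 on sham shControl arrays. It was above background on 2 of the 3 TAC shUhrf1 arrays, on all 3 TAC shControl arrays and on no sham array, and in each surgery the 3 shUhrf1 values lay below the 3 shControl values. Because sham arrays read only background, a fold is not given for sham cells, and a difference in Uhrf1 could be read only after TAC. Averaged over both surgeries the log2 difference was -0.85 ± 0.25 (SE, limma adjusted p = 0.0697), which did not pass the threshold of 0.05. Within TAC it was -1.35 (limma adjusted p = 0.0355). Cell cycle and replication genes had a median of -0.64 after TAC and endothelial markers one of -1.39. What part of the Uhrf1 difference is knockdown in cardiomyocytes was not tested. The other Uhrf1 probe was above background on no array.

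The Uhrf1 hairpin went with more rises than falls. Averaged over both surgeries, 344 of 8745 genes (3.93%) passed at a limma adjusted p under 0.05: 256 were higher (2.93% of genes tested) and 88 lower (1.01%) in shUhrf1 than in shControl. At least 2-fold differences were found for 16 of the rises and 3 of the falls, and the median log2 difference was 0.60 among the rises and -0.51 among the falls. Sizes depended on the processing. Across the alternatives of the closing section the lowest log2 difference was 0.32 for Mxi1, 0.31 for Nkiras1 and 0.22 for Lmod2. These compare with 1.32, 1.35 and 1.10 in the main fit. For ND4L the lowest was 1.59, against 1.66. All 344 had the same sign under both surgeries, which the averaged fit favours and which is therefore no separate check. The 3 shUhrf1 arrays lay apart from the 3 shControl arrays in each surgery for 208 of the 256 rises and 64 of the 88 falls. All 6 shUhrf1 arrays lay beyond all 6 shControl arrays for 125 rises and 36 falls. The averaged fit favours such separation too, so these counts are no separate check either. Over all genes tested, groups lay apart in both surgeries for 325 genes upward (3.72%), for 150 downward (1.72%) and for 63 in opposite directions (0.72%).

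The split between rises and falls depended on how arrays were brought to one scale. With each array scaled to a common median in place of quantiles, 275 genes were higher and 4 lower, that is 98.57% higher in place of 74.42%, and the median of all genes was 0.14 in place of -0.005 on the log2 scale. List medians given below for median scaling carry this common shift. Single arrays moved the total by over 1.5 times. It was 176 without TAC shUhrf1 array 3, 181 without sham shUhrf1 array 2, 187 without sham shControl array 3, 187 without TAC shControl array 2, 202 without TAC shUhrf1 array 2 and 212 without TAC shControl array 1. Each of the 12 arrays could be left out in turn without losing the call for 109 of the 256 rises and 17 of the 88 falls.

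**Figure D1:**
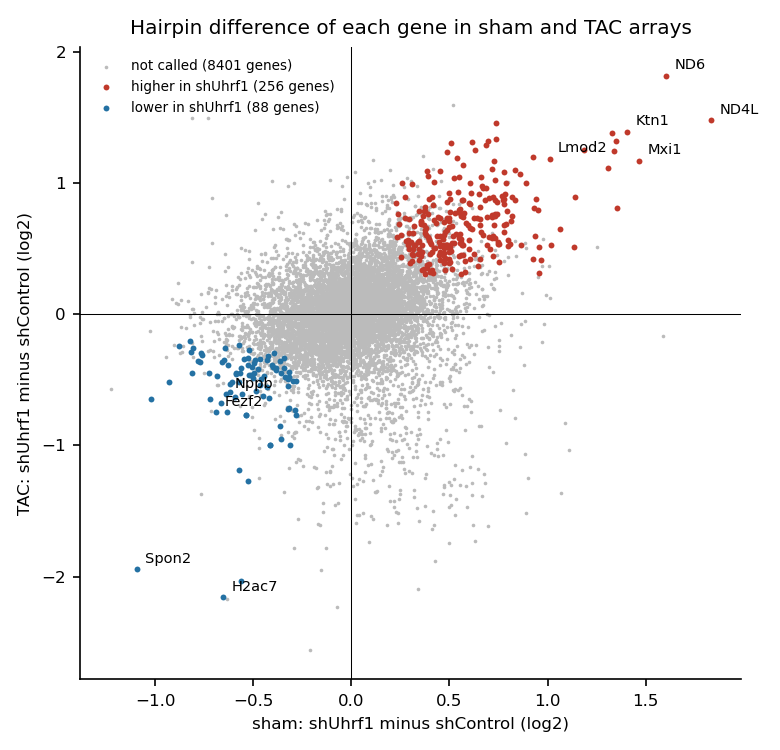
Each point is 1 of 8745 genes, with its shUhrf1 minus shControl log2 difference in sham arrays on the horizontal axis and in TAC arrays on the vertical axis. The 256 genes called higher on average (red) lie at the upper right and the 88 called lower (blue) at the lower left, as their selection favours, and all other genes are grey.

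Most rises after TAC were met again in the sham arrays, whereas for falls after TAC the share met there depended on the filter and on single arrays. The TAC and the sham differences come from separate arrays, so TAC calls can be set beside the signs in sham. The TAC calls took their spread from the sham arrays too, which favours genes with a tight spread there. Such genes also lie apart in sham more easily, so the shares lying apart are no separate check. In a fit to the 6 TAC arrays by themselves 66 genes were higher and 126 lower. In the TAC contrast 253 genes passed (2.89%), 134 of them higher (1.53%) and 119 lower (1.36%) in shUhrf1. Of the 134 genes higher after TAC, 122 (91.0%) also had a positive difference in sham arrays, where 49.6% of all genes did. The sham groups lay apart in the same direction for 91 of them (67.9%, against 10.2% of all genes) and in the other direction for 2. Their median log2 difference was 0.87 after TAC and 0.44 in sham. Of the 103 above background on all 6 sham arrays, 96 (93.2%) had a positive sham difference, against 47.6% of the 6794 genes so detected.

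Of the 119 genes lower after TAC, 54 (45.4%) also had a negative difference in sham arrays, against 50.4% of all genes. The sham groups lay apart in the same direction for 12 of them (10.1%, against 10.4% of all genes) and in the other direction for 8. Their median was -1.09 after TAC and 0.03 in sham. Of the 119, 21 (17.6%) were above background on no sham array, against 3.72% of all genes, so their sham sign is that of background readings. Of the 61 above background on all 6 sham arrays, 36 (59.0%) had a negative sham difference, against 52.4% of genes so detected. The share with a negative sham difference was 57.7% of 71 genes when only probes detected on all 12 arrays were tested and 61.5% of 26 with no filter. It was 20.7% of 227 genes without sham shUhrf1 array 2, 60.7% of 112 without sham shUhrf1 array 3 and 71.4% of 14 without TAC shUhrf1 array 2. In the fit averaged over both surgeries, 98 of the 134 and 18 of the 119 passed. That fit includes the same TAC arrays, so these counts are no separate check. The TAC counts themselves rested on few arrays: they were 5 higher and 6 lower without TAC shUhrf1 array 3, 7 and 1 without TAC shControl array 2, 20 and 14 without TAC shUhrf1 array 2, and 25 and 11 without TAC shControl array 3.

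**Figure D2:**
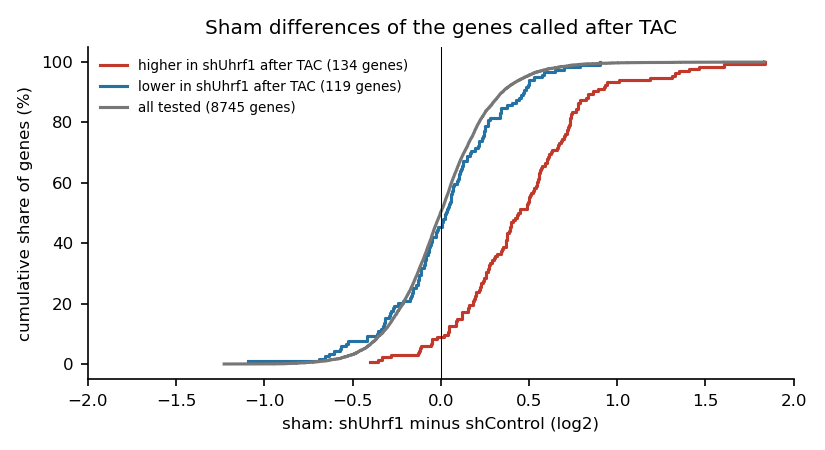
The horizontal axis gives the shUhrf1 minus shControl log2 difference in sham arrays and the vertical axis the cumulative percent of genes. The curve of the 134 genes higher after TAC (red) lies to the right of that of all 8745 genes (grey), with a median of 0.44, whereas the curve of the 119 genes lower after TAC (blue) runs closer to it, with a median of 0.03, and includes 21 genes above background on no sham array.

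In the sham contrast of the fit to all 12 arrays 4 genes passed (0.0457%), all higher in shUhrf1: ND4L, Mxi1, Lmod2 and Asns. That contrast takes its spread from the TAC arrays too. In a limma fit to the 6 sham arrays by themselves 0 genes passed (1153 at an unadjusted p under 0.05), with an adjusted p of 0.0549 for ND4L and of 0.131 for each of the other 3, and 0 were higher with a replicate block within each surgery. In the fit to all 12 arrays 0 were lower at an adjusted p under 0.05, and 1154 genes had an unadjusted p under 0.05 in either direction. The first 3 also rose after TAC and on average, and Asns, asparagine synthetase, differed by 0.12 after TAC and by 0.57 on average (limma adjusted p = 0.685 and 0.0515). Asns was above background on no sham shControl array and was at least 1.37-fold higher in sham shUhrf1. A test of the difference between the hairpin effects in TAC and in sham passed for 0 genes (0%) in limma at an adjusted p under 0.05, and 866 genes had an unadjusted p under 0.05. Without sham shUhrf1 array 2 it passed for 95 genes in the negative and 3 in the positive direction, and without TAC shControl array 1 for 27 in the negative direction. The 6 genes with the smallest p were Cdc20, Bcl6b, Fhod1, Col6a2, Ift122 and Dgcr8, each at an adjusted p of 0.162. Across all genes the sham and TAC differences correlated with a Pearson r of 0.24 and a Spearman rho of 0.28, and 60.7% of genes had the same sign in both, which is a description, since genes are not independent replicates.

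Mxi1 and Lmod2 were the nuclear genes that passed on average and in both the TAC and the sham contrast of the 12-array fit. Mxi1 encodes a partner of MAX that opposes MYC at shared DNA sites. Its log2 intensities were 6.52, 6.49 and 6.92 on TAC shUhrf1 arrays, against 5.10, 5.56 and 5.74 on TAC shControl arrays. In sham cells the values were 6.83, 6.83 and 6.59 with shUhrf1, against 5.47, 4.78 and 5.60 with shControl. All 6 shUhrf1 arrays lay above all 6 shControl arrays, and the averaged difference was 1.32 ± 0.16 (SE, limma adjusted p = 0.00228). Lmod2 encodes leiomodin, a muscle protein that nucleates actin and sets thin filament length. It measured 6.48, 6.64 and 6.43 on TAC shUhrf1 arrays, against 5.41, 5.23 and 5.35 on TAC shControl arrays. After sham surgery shUhrf1 arrays gave 5.98, 5.91 and 5.76 and shControl arrays 4.87, 5.05 and 4.70. It was above background on no sham shControl array, so the sham difference is a bound of at least 1.44-fold, and averaged over both surgeries it was 1.10 ± 0.10 (SE, limma adjusted p = 0.000125).

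The 250 bases before the transcription start of both genes are shown because UHRF1 acts at CpG sites, and with them those of Rhox5, a gene of the opposite direction described below. They are RefSeq sequences of build GRCm38.p6, on the plus strand, and the capitals mark each CG. For Mxi1, which has 3 listed starts, the window lies before the start farthest upstream, at chr19:53310256-53310505, and holds 13 CG. The Lmod2 window, at chr6:24597521-24597770, holds 4 and the Rhox5 window, at chrX:37754358-37754607, also holds 4. With the next 50 bases added, windows of 300 bases hold 17 CG for Mxi1, 8 for Lmod2 and 5 for Rhox5. All genes tested had a median of 21 in windows of that length. The count is a property of the sequence, and the methylation of these sites was not measured.
Mxi1: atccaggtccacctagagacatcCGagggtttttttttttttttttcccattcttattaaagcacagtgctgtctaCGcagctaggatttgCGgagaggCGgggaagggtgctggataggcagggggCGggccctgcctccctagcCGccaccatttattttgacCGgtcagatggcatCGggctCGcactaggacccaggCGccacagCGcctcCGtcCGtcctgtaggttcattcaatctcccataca
Lmod2: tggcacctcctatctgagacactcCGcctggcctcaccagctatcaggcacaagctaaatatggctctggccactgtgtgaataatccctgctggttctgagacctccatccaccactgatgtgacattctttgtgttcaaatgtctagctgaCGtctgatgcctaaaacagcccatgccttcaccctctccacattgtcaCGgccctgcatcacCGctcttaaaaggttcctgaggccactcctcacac
Rhox5: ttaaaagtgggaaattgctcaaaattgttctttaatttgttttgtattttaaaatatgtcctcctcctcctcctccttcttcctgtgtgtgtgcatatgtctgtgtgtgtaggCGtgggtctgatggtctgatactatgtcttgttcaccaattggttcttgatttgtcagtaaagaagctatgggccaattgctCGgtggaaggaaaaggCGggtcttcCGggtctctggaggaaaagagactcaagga

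Of 9 tested members of the MYC/MAX network 2 rose, Mxi1 and Mlx, beside 2.93% of all genes, and 0 fell. Of the 9 differences 6 were positive, and the median was 0.002 on average, 0.22 after TAC and 0.13 in sham, beside -0.005, 0.013 and -0.003 for all genes. Mlx, a MAX-like protein that pairs with glucose-sensing factors, rose by 0.51 ± 0.13 (SE, limma adjusted p = 0.0472), a call that ended when any of 11 of the 12 arrays was left out. Its second probe, above background on 3 arrays, differed by -0.15 and did not pass. Max differed by -0.18 and Mnt by 0.22. Myc itself was above background on no array. The E-box CACGTG is its own reverse complement and is bound by MYC/MAX dimers. It was looked for in windows of 300 bases around each listed start of a gene. Among genes with a listed promoter, 6.07% of the 214 that rose had it at any start. The share was 10.96% of the 73 that fell and 12.3% of all 7134 tested.

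**Figure D3:**
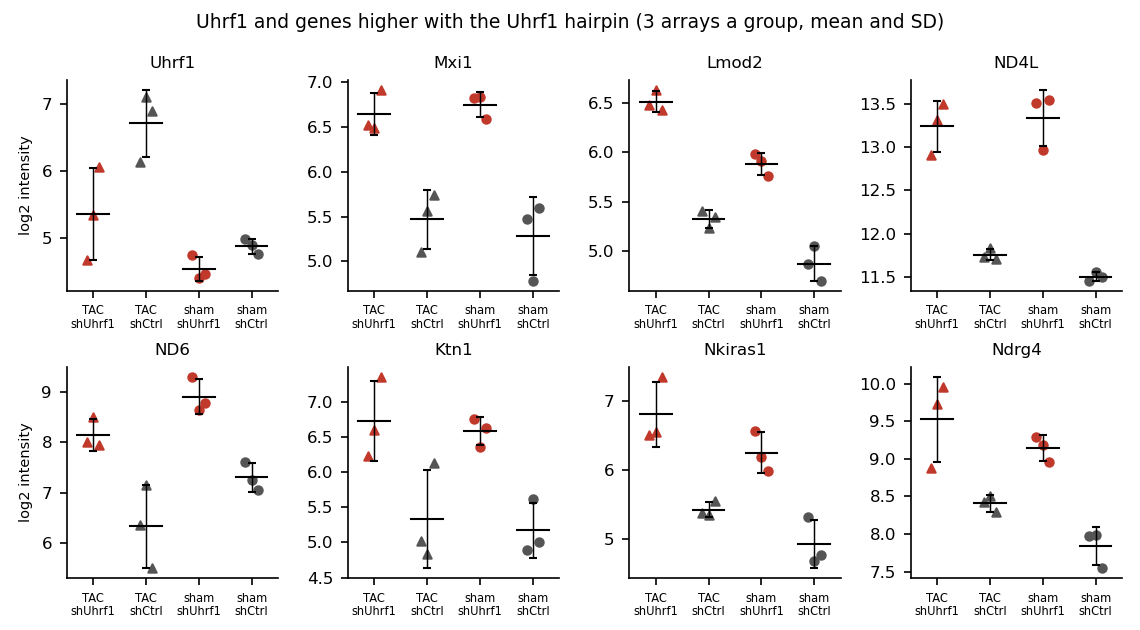
Each panel gives the log2 intensity (vertical axis) of Uhrf1 or of 1 of 7 genes called higher, with a point per array for TAC shUhrf1, TAC shControl, sham shUhrf1 and sham shControl, a line at the mean and a bar of 1 SD (n = 3). In the 7 rises all shUhrf1 points lie above the shControl points of the same surgery, as for Mxi1 at 6.52, 6.49 and 6.92 against 5.10, 5.56 and 5.74 after TAC.

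The 2 largest rises were those of mitochondrially encoded transcripts. ND6, a subunit of respiratory complex I, had log2 intensities of 8.00, 8.51 and 7.94 on TAC shUhrf1 arrays, against 6.36, 7.14 and 5.49 on TAC shControl arrays. With sham surgery, shUhrf1 arrays read 9.31, 8.64 and 8.78, against 7.61, 7.24 and 7.05 for shControl arrays. Its averaged difference was 1.71 ± 0.23 (SE, limma adjusted p = 0.00312). ND4L, another subunit of complex I, measured 12.91, 13.31 and 13.49 on TAC shUhrf1 arrays, against 11.73, 11.83 and 11.71 on TAC shControl arrays. On sham shUhrf1 arrays it was 13.51, 12.97 and 13.54, against 11.46, 11.56 and 11.50 on sham shControl arrays. The hairpin groups differed by 1.66 ± 0.13 (SE, limma adjusted p = 9.46e-05), with no overlap in either surgery. The other 6 mitochondrially encoded genes with a tested probe did not pass: COX2 differed by 0.28, CYTB by 0.06, ATP6 by 0.06, ND4 by 0.03, ND1 by -0.13 and ND5 by -0.74. ND4L and ND4 are neighbouring genes of one transcript, and their probes differed by 1.66 and 0.03.

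Some nuclear genes of energy metabolism rose, in lists whose counts stand beside 2.93% higher among all genes tested. The matrix enzymes of the citric acid cycle and of the breakdown of branched-chain amino acids had 5 of 28 tested members higher and 0 lower, with 24 of 28 positive and a median of 0.19. This list was put together after its leading genes had been seen. Idh2, the mitochondrial isocitrate dehydrogenase that forms NADPH, had log2 intensities of 13.60, 13.85 and 14.26 on TAC shUhrf1 arrays, against 13.05, 13.18 and 12.96 on TAC shControl arrays. Sham shUhrf1 arrays had 13.91, 14.08 and 13.90, against 13.30, 13.22 and 13.04 on sham shControl arrays. The averaged difference was 0.81 ± 0.11 (SE, limma adjusted p = 0.00327) with no overlap between the hairpin groups. Dld, the dihydrolipoamide dehydrogenase shared by several of these enzyme complexes, rose by 1.06 ± 0.18. Aldh6a1 and Acadsb, of valine and of branched acyl-CoA breakdown, rose by 0.93 ± 0.13 and 0.65 ± 0.12, and Mccc1, of leucine breakdown, rose by 0.78. Sucla2, a subunit of succinyl-CoA ligase, differed by 0.63 (limma adjusted p = 0.0503).

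Of 69 tested subunits of respiratory complexes I to V, 5 rose and 0 fell, but only 28 of 69 differences were positive and the median was -0.01. Atp5a1, the alpha subunit of ATP synthase, measured 12.26, 12.50 and 12.91 on TAC shUhrf1 arrays, against 11.52, 11.15 and 11.79 on TAC shControl arrays. In sham cells the values were 12.60, 12.34 and 12.28 with shUhrf1, against 11.64, 11.53 and 11.45 with shControl. It rose by 0.96 ± 0.14 (SE, limma adjusted p = 0.00327), whereas its second probe differed by 0.14. Ndufb4 and Ndufb9, of complex I, rose by 1.01 ± 0.20 and 0.67 ± 0.11, and Sdhd, the membrane anchor of succinate dehydrogenase, by 0.67 ± 0.13. Cox7b, of cytochrome c oxidase, passed narrowly at 0.82 (limma adjusted p = 0.04998). With median scaling the list median was 0.11 and 52 of 69 differences were positive. Under that scaling all genes had a median of 0.14, and 6507 of 8745 differences were positive. The list thus lay at -0.03 relative to the median of all genes.

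Fatty acid uptake and oxidation had 2 rises and 0 falls among 34 tested members, a median of 0.12 and 25 positive differences. Hadhb, the beta subunit of the mitochondrial trifunctional protein, rose by 0.49 ± 0.11 and ended as a call without sham shUhrf1 array 2. Cd36, the fatty acid translocase, rose by 0.85 ± 0.22 (SE, limma adjusted p = 0.0422). It was above background on 2 of the 6 shControl arrays, its groups overlapped, and the call ended without any 1 of 9 arrays. Glycolysis and glucose transport had 0 calls of 20 tested in limma (1 at an unadjusted p under 0.05) and a median of 0.05. Nampt, the rate-limiting enzyme of NAD salvage, rose by 1.04 ± 0.20, and its second probe rose by 0.80.

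Adult contraction and calcium handling genes had 3 rises and 0 falls among 31 tested, beside 2.93% and 1.01% of all genes. The list had a median of 0.08 and 22 positive differences. Besides Lmod2 the rises were Pln and Ryr2. Pln, phospholamban, the inhibitor of the sarcoplasmic calcium pump, measured 12.72, 13.23 and 13.39 on TAC shUhrf1 arrays, against 12.56, 12.67 and 12.50 on TAC shControl arrays. After sham surgery shUhrf1 arrays gave 13.20, 13.40 and 13.43 and shControl arrays 12.64, 12.71 and 12.43. It rose by 0.64 ± 0.12 (SE, limma adjusted p = 0.0114), with groups apart in both surgeries. Ryr2, the calcium release channel, rose by 0.46 ± 0.09, and its 3 dimmer probes differed by 0.10, 0.17 and -0.26. The calcium pump gene Atp2a2 differed by 0.05 on its brightest and on its dimmest probe, which did not pass, and rose by 0.37 on its other probe (limma adjusted p = 0.0360). Myh6 differed by -0.01, which did not pass. Tecrl, a relative of enoyl-CoA reductases linked to inherited arrhythmia in humans, rose by 1.22 ± 0.18 and was at least 1.35-fold higher in sham arrays, where shControl arrays were below background.

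Further genes among the 15 largest rises had varied roles. Ktn1, which encodes kinectin, a membrane protein of the endoplasmic reticulum that binds kinesin, rose by 1.40 ± 0.23. Nkiras1, an inhibitor of NF-kappaB signalling related to Ras, rose by 1.35 ± 0.16 and was below background on all 3 sham shControl arrays. Ndrg4, studied in zebrafish heart growth, had log2 intensities of 8.88, 9.73 and 9.96 on TAC shUhrf1 arrays, against 8.43, 8.51 and 8.29 on TAC shControl arrays. With sham surgery, shUhrf1 arrays read 9.30, 9.19 and 8.95, against 7.98, 7.99 and 7.54 for shControl arrays. It rose by 1.21 ± 0.16 (SE, limma adjusted p = 0.00312) and its groups lay apart in both surgeries. Ppip5k2, a kinase that makes inositol pyrophosphates, rose by 1.10 ± 0.20, and Rgma, a co-receptor of bone morphogenetic proteins, by 1.02 ± 0.21. Adam20, of a family of membrane proteases, rose by 1.29 ± 0.26, but TAC shUhrf1 array 1 (5.22) lay below TAC shControl array 1 (5.25). Morf4l1b, which rose by 1.34 ± 0.21, belongs to a gene family with closely similar copies, so its probe may not tell them apart.

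Immediate early genes, which respond to stimuli within minutes, rose in 3 of 20 tested cases, beside 2.93% of all genes. The list had 0 falls, 16 positive differences and a median of 0.26. Fosb had log2 intensities of 7.25, 6.63 and 7.02 on TAC shUhrf1 arrays, against 6.22, 6.45 and 5.80 on TAC shControl arrays. On sham shUhrf1 arrays it was 7.38, 6.76 and 6.77, against 5.46, 5.43 and 5.95 on sham shControl arrays. It rose by 1.08 ± 0.18 (SE, limma adjusted p = 0.00611). Fos and Egr1 rose by 0.73 ± 0.13 and 0.74 ± 0.13, and for all 3 genes the hairpin groups lay apart under both surgeries. Genes of the circadian clock had 0 calls of 13 tested in limma (5 at an unadjusted p under 0.05), although 10 differences were positive with a median of 0.28, among them Per2 at 0.71 (limma adjusted p = 0.0539) and Nr1d2 at 0.66 (limma adjusted p = 0.0711). The second probes of both genes passed, that of Per2 at 0.81 (limma adjusted p = 0.0242) and that of Nr1d2, above background on 5 arrays, at 0.68 (limma adjusted p = 0.0298). The hour at which tissue was taken is not given in the sources used here, and its part in either list was not tested.

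Chaperone and protein turnover lists held a few rises each. The counts in this paragraph stand beside 2.93% higher and 1.01% lower among all genes tested. Of 26 tested genes of endoplasmic reticulum chaperones and stress 3 rose and 0 fell, with a median of 0.04. Hspa5, the main chaperone of the endoplasmic reticulum (BiP), measured 5.93, 6.16 and 6.62 on TAC shUhrf1 arrays, against 5.16, 4.97 and 5.08 on TAC shControl arrays. Sham shUhrf1 arrays had 6.47, 6.36 and 6.51, against 5.94, 5.72 and 5.51 on sham shControl arrays. It rose by 0.95 ± 0.13 (SE, limma adjusted p = 0.00327). Dnajb9 and Mthfd2 of the same list rose by 0.46 ± 0.12 and 0.73 ± 0.19, calls that ended without any of 11 and any of 10 of the 12 arrays. The second Mthfd2 probe, above background on 3 arrays, differed by 0.15 and did not pass. Among 27 proteasome subunits 2 rose and 0 fell, with a median of 0.004: Psmd6 by 0.99 ± 0.20, and Psmc6, below background on all 6 shControl arrays, by at least 1.18-fold (limma adjusted p = 0.00654). Hsp90aa1, a cytosolic chaperone, was the single rise among 35 heat shock and redox genes, at 0.78 ± 0.17, and ended as a call without TAC shControl array 1 or 2 or sham shUhrf1 array 2. The list of angiogenic ligands, other FGF family genes and hypoxia factors had 3 rises and 0 falls of 20 tested. The rises were Vhl at 0.60 ± 0.15, Fgf13 at 0.36 ± 0.08 and Fgf1 at 0.35 ± 0.09. The Fgf1 call ended without any 1 of the 12 arrays, that of Vhl without any 1 of 9 and that of Fgf13 without any 1 of 7. The second Fgf1 probe differed by -0.02 and the second Fgf13 probe by 0.31, and neither passed. Genes of the nonmuscle actin cytoskeleton had 1 rise and 0 falls among 32 tested (11 at an unadjusted p under 0.05), while 7 of the 32 differences were positive and the median was -0.29, with -0.51 after TAC and 0.07 in sham. The rise was that of Tpm3, a tropomyosin, at 0.57 ± 0.09, and its other 2 probes differed by -0.01 and -0.29.

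The falls were fewer and most were less stable. Spon2, a secreted matrix protein, had the largest: 5.61, 5.79 and 5.84 on TAC shUhrf1 arrays, against 6.35, 7.80 and 8.92 on TAC shControl arrays. In sham cells the values were 4.44, 4.79 and 5.46 with shUhrf1, against 5.54, 6.10 and 6.32 with shControl. The groups lay apart in both surgeries and the averaged difference was -1.52 ± 0.35 (SE, limma adjusted p = 0.0279), a call that ended without any 1 of 7 of the 12 arrays, TAC shUhrf1 arrays 1, 2 and 3 among them. In a bulk preparation fewer cells of a type and less RNA per cell cannot be told apart, here and for the genes below. Genes that stayed called without each of the 12 arrays include Fezf2, Rhoc, Clec4g, Gstt1, Cdkn3 and H2bc15. With median scaling the calls of Rhoc, Clec4g, Gstt1, Cdkn3 and H2bc15 ended. Those of Rhoc, Gstt1 and Cdkn3 also ended with the hairpin alone in the fit. The Rhoc call ended too with a replicate block within each surgery and with the mean of its probes. Fezf2 was called in all 23 alternatives in which it was tested. Fezf2, a transcription factor of the forebrain, measured 5.07, 5.19 and 4.89 on TAC shUhrf1 arrays, against 6.13, 5.61 and 5.65 on TAC shControl arrays. After sham surgery shUhrf1 arrays gave 5.28, 5.16 and 5.40 and shControl arrays 5.96, 6.09 and 5.85. The averaged difference was -0.72 ± 0.11 (SE, limma adjusted p = 0.00481), and all 6 shUhrf1 arrays lay below all 6 shControl arrays. Gstt1, a glutathione transferase, and Cdkn3, a phosphatase of cyclin-dependent kinases, fell by 0.61 ± 0.12 each, and Cdkn3 was below background on all 3 sham shUhrf1 arrays. Ddc, which makes dopamine and serotonin from their precursors, fell by 0.72 ± 0.18, with groups that overlapped after TAC and a call that ended without any 1 of 10 arrays. Its other probes differed by -0.33 and -0.16 and did not pass.

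Replication-dependent histone genes had 3 falls and 0 rises among 35 tested, beside 1.01% and 2.93% of all genes, with a median of -0.15. Relative to the median of all genes the list lay at -0.14 both with quantiles and with median scaling. H2ac7 and H2ac13 encode histone H2A and H2bc15 histone H2B. H2ac7 measured 7.93, 8.29 and 7.71 on TAC shUhrf1 arrays, against 8.97, 10.79 and 10.65 on TAC shControl arrays. With sham surgery, shUhrf1 arrays read 7.71, 7.33 and 7.84, against 8.19, 8.05 and 8.61 for shControl arrays. The averaged difference of -1.41 ± 0.33 (SE, limma adjusted p = 0.0304) was made up of -2.16 after TAC and -0.66 in sham. H2ac13 fell by 0.65 ± 0.16 and H2bc15 by 0.51 ± 0.10, and H2ac24, a gene outside the list, fell by 1.30 ± 0.32. The H2A genes have near-identical coding sequences, so their probes may read several of them. Each of the H2ac7, H2ac13 and H2ac24 calls ended without any 1 of 7 arrays. Cell cycle and replication genes had 0 calls of 24 tested in limma (14 at an unadjusted p under 0.05), with a median of -0.64 after TAC. Of the 24, 13 were above background on no sham array, so the sham median of -0.02 is in the main one of background readings.

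Rhox5, an X-linked homeobox gene of the reproductive tract known to be held silent by DNA methylation in mouse somatic cells, was lower with shUhrf1. Its log2 intensities were 4.86, 5.79 and 5.57 on TAC shUhrf1 arrays, against 5.95, 5.95 and 6.25 on TAC shControl arrays. On sham shUhrf1 arrays it was 5.76, 5.32 and 4.86, against 6.75, 6.33 and 5.92 on sham shControl arrays. The groups lay apart in both surgeries, with an averaged difference of -0.83 ± 0.20 (SE, limma adjusted p = 0.0326), and the call ended without any 1 of 7 arrays. Of 24 germline genes on the array that are held to be silenced by DNA methylation, 20 were above background on no array, 3 were tested and Rhox5 alone passed. The other 2 tested, Xlr4a and Mov10l1, differed by 0.71 and 0.22 (limma adjusted p = 0.502 and 0.243). Imprinted genes had 0 calls of 11 tested in limma (2 at an unadjusted p under 0.05), with a median of -0.20. DNA methylation writers and readers had 0 calls of 15 (2 at an unadjusted p under 0.05) and a median of -0.05 (0.12 with median scaling), and Dnmt1 differed by -0.05 ± 0.14. Ehmt1, a histone H3 lysine methyltransferase, came nearest, at -0.61 (limma adjusted p = 0.0608).

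**Figure D4:**
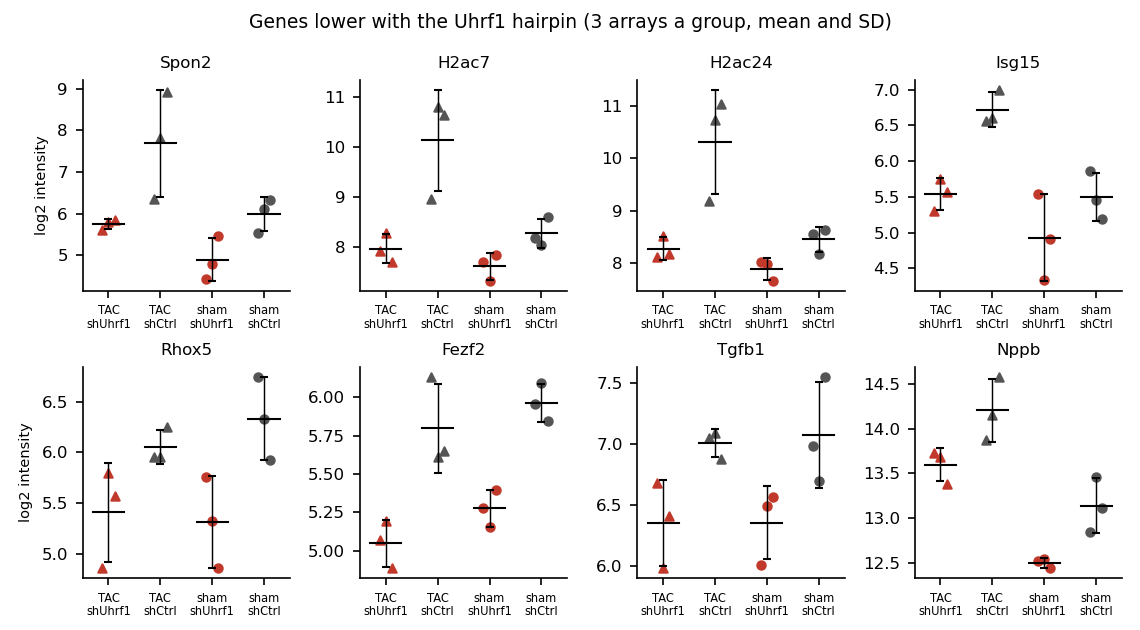
Each panel gives the log2 intensity (vertical axis) of 1 of 8 genes called lower, with a point per array for TAC shUhrf1, TAC shControl, sham shUhrf1 and sham shControl, a line at the mean and a bar of 1 SD (n = 3). For H2ac7 the 3 TAC shControl points, up to 10.79, lie above all other arrays, whereas for Fezf2 the shUhrf1 points lie below the shControl points at a like distance in both surgeries.

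Of 26 tested hypertrophic and fetal genes 1 fell and 0 rose, beside 1.01% and 2.93% of all genes. The fall was that of Nppb, which encodes brain natriuretic peptide and is a marker of load on the ventricle. Nppb measured 13.72, 13.68 and 13.38 on TAC shUhrf1 arrays, against 13.88, 14.15 and 14.58 on TAC shControl arrays. Sham shUhrf1 arrays had 12.53, 12.54 and 12.44, against 12.85, 13.46 and 13.11 on sham shControl arrays. The averaged difference was -0.62 ± 0.13 (SE, limma adjusted p = 0.0214), close to that in TAC (-0.61) and in sham (-0.64), and the call ended without TAC shUhrf1 array 3, with median scaling, with the hairpin alone in the fit and with a replicate block within each surgery (limma adjusted p up to 0.378). Nppa, atrial natriuretic peptide, differed by 0.19 ± 0.20, Acta1, skeletal actin, by -0.17 ± 0.18 and Myh7, the slow myosin heavy chain, by 0.90 ± 0.36 (limma adjusted p = 0.169). The list median was -0.10, and 0.05 with median scaling.

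Matrix and signalling genes among the falls included Tgfb1, which encodes a growth factor that drives matrix production. Tgfb1 measured 6.68, 5.98 and 6.41 on TAC shUhrf1 arrays, against 7.05, 7.09 and 6.87 on TAC shControl arrays. In sham cells the values were 6.01, 6.49 and 6.56 with shUhrf1, against 6.98, 6.70 and 7.55 with shControl. The averaged difference was -0.68 ± 0.16 (SE, limma adjusted p = 0.0308), a call that ended without any 1 of 7 arrays. It was the single fall among 37 extracellular matrix genes, beside 1.01% of all genes. The list had 0 rises and a median of -0.17, with -0.52 after TAC and 0.02 in sham. Tnfrsf12a, the receptor of the cytokine TWEAK, fell by 0.66 ± 0.15 (call ended without any 1 of 4 arrays), and Rhoc, a small GTPase of the cytoskeleton, by 0.71 ± 0.14, though its second probe differed by 0.08. Cavin3, a coat protein of caveolae, fell by 0.70 ± 0.16, and Rftn2, a protein of membrane rafts, by 0.69 ± 0.16, with -0.69 on its second probe as well. The Cavin3 call ended without any 1 of 6 arrays and the Rftn2 call without any 1 of 7. Id1, a target of bone morphogenetic protein signalling, and Ehd1, of endosomal recycling, fell by 0.90 ± 0.24 and 0.67 ± 0.17, both calls that ended without any 1 of 10 arrays. For Rhoc, Cavin3, Id1 and Ehd1 the hairpin groups lay apart after TAC and overlapped in sham.

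Immune lists held few calls, and their counts stand beside 2.93% higher and 1.01% lower among all genes tested. Of 20 tested interferon response genes 1 fell and 0 rose, and 1 of the 20 differences was positive, with a median of -0.34, or -0.61 after TAC and -0.08 in sham. The gene that fell was Isg15, a ubiquitin-like protein, at -0.88 ± 0.20 (SE, limma adjusted p = 0.0291), and its groups overlapped in sham arrays. That call ended without any 1 of 8 arrays, as did that of Aif1 below. Antigen presentation genes had 0 calls of 16 in limma (4 at an unadjusted p under 0.05) and a median of -0.31. Aif1 was the single fall among 16 macrophage and monocyte markers, at -0.52 ± 0.12, and the list median was -0.19. Cytokines, chemokines and acute phase genes had 0 calls of 25 (3 unadjusted), with medians of 0.30 after TAC and -0.15 in sham.

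Cytosolic ribosomal protein genes had 1 fall and 0 rises among 51 tested, beside 1.01% and 2.93% of all genes. Of the 51 differences 7 were positive. Their median was -0.19, with -0.20 after TAC and -0.19 in sham, and -0.08 with median scaling, where all genes had a median of 0.14. Rps19 was the member that passed, at -0.40 ± 0.10 (SE, limma adjusted p = 0.0328), with groups apart in both surgeries and a call that ended without any 1 of 9 arrays.

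The lists of CDK inhibitors and p53 targets and of small RNA and hairpin processing had 0 calls of 18 and 0 of 15 in limma (2 and 4 at an unadjusted p under 0.05), with medians of 0.03 and 0.08. Among markers of other cells, endothelial genes had 0 calls of 22 on average (5 unadjusted), yet their medians were -1.39 after TAC and 0.25 in sham. The summed intensity of these markers ran from 3772 to 5498 on TAC shUhrf1 arrays, against 7369 to 14481 on TAC shControl arrays, and from 1965 to 5995 on sham shUhrf1 arrays, against 2999 to 3681 on sham shControl arrays. Cdh5, the vascular cadherin, differed by -1.62 after TAC and by 0.70 in sham. Clec4g, a lectin of sinusoidal endothelium, was below background on all 6 shUhrf1 arrays and was at least 1.26-fold lower on average (limma adjusted p = 0.00712). The part of endothelial RNA in any fall was not tested.

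Fibroblast markers had 0 calls of 18 in limma (2 at an unadjusted p under 0.05) and medians of -0.39 after TAC and 0.15 in sham. Sham shUhrf1 array 2 stood apart on several of these lists: its mean log2 deviation from the mean of all 12 arrays was -1.52 over fibroblast markers, against -0.39 on each of the other 2 sham shUhrf1 arrays. Over endothelial markers it was -1.19, against 0.02 and 0.18, over macrophage and monocyte markers -1.41, against -0.34 on each, and over interferon response genes -1.05, against 0.03 and -0.28. Smooth muscle and pericyte markers had 0 calls of 13 (2 unadjusted), with -0.46 after TAC and 0.19 in sham, and atrial markers 0 of 7 (1 unadjusted), with 0.25 and 0.29. Erythroid markers had 0 calls of 4 (0 unadjusted), with 1.495 after TAC and -0.77 in sham. Of markers of lymphocytes and neutrophils 2 were tested, with a median of 0.39, and of epicardium, nerve and fat 1, at -0.51, and neither list had a call (0 and 1 unadjusted). Cardiomyocyte markers had 2 rises of 12, Pln and Ryr2, beside 2.93% of all genes, with a median of -0.02 (0.18 with median scaling). Their summed intensity ran from 200654 to 231096 on TAC shUhrf1 arrays, against 227722 to 229321 on TAC shControl arrays, and from 230881 to 235829 on sham shUhrf1 arrays, against 214738 to 226886 on sham shControl arrays.

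**Figure D5:**
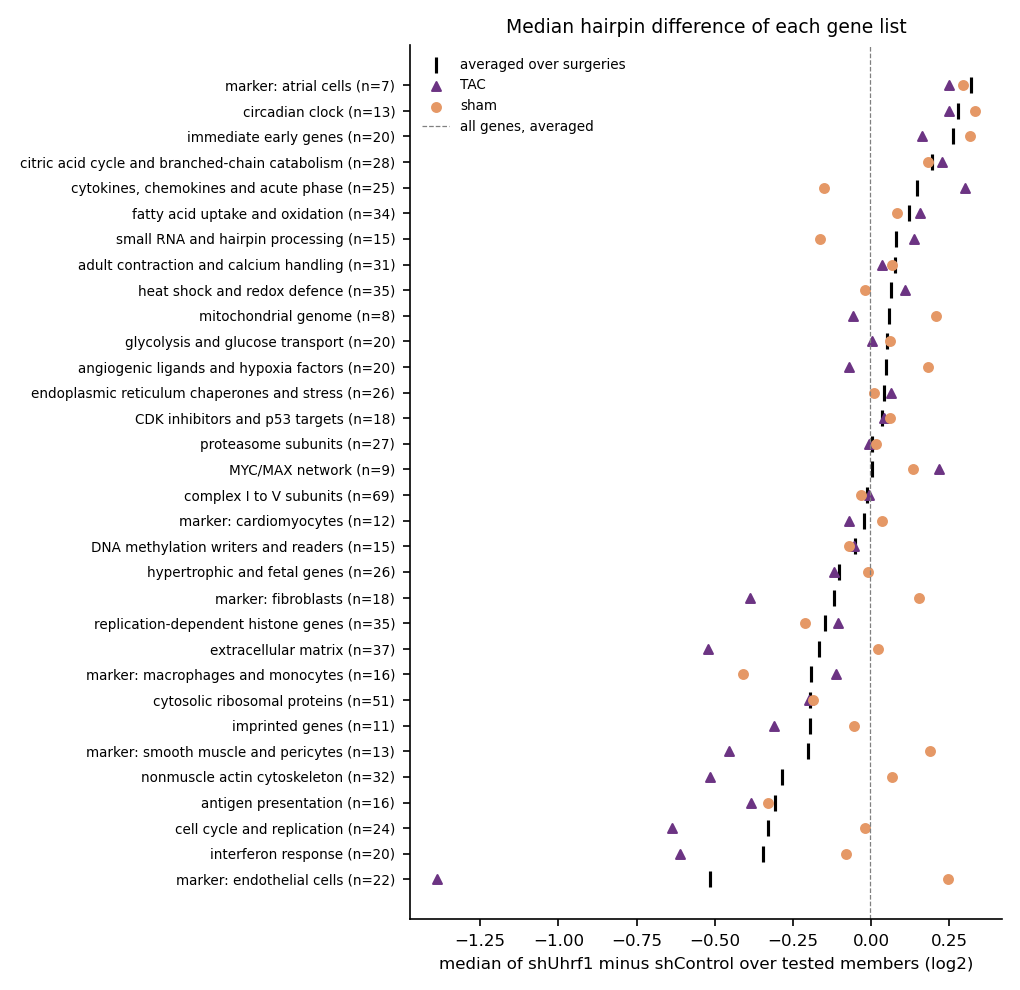
Each row is a gene list with at least 7 tested members, and the horizontal axis gives the median shUhrf1 minus shControl log2 difference on average (bar), in TAC (triangle) and in sham (circle), with the median of all genes, -0.005, as a dashed line. TAC and sham medians lie close together for ribosomal protein genes (-0.20 and -0.19) and far apart for endothelial markers (-1.39 and 0.25).

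The called genes were also compared by how they were measured. Of the 344, 189 rises and 74 falls were above background on all 12 arrays, and 42 rises and 6 falls were below it on all 3 arrays of at least 1 group, 18 rises and 4 falls of them on a whole side of 6. A single probe was kept for 224 of the called genes. Of the 120 with several probes, the other probes all had the same direction in 83, another probe passed the same way in 16, and for Socs4 another passed the opposite way. Genes that rose had a median span of 28.8 kb in RefSeq, genes that fell 11.7 kb and all genes tested 22.4 kb. In windows of 300 bases around the start, genes that rose had a median of 23.5 CG, genes that fell 19 and all genes 21, with a promoter listed for 83.6%, 83.0% and 81.6% of them. A gene with several listed starts entered with the mean over its starts. These are descriptions, with no test of the difference.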

How the data were processed

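The authors deposited a linear, non-normalized table that gives each probe an intensity on every array and, per the file headers, its detection p-value. A second deposited table holds normalized values on a log2-like scale. The submitters' processing notes name lumi, with no settings, and this table served as an alternative. Neither source names the slide or the scan of an array.

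Intensities were background-corrected from the detection p-values, offset by 16 and quantile-normalized (neqc, limma 3.58.1, R 4.3.3), then put on the log2 scale. A probe was kept when its detection p was under 0.01 on 3 or more of the 12 arrays. Probe names came from GEO's platform annotation, updated through RefSeq: 34885 probes had 1 symbol, 18 several and 10378 none. A gene was read from its brightest kept probe.

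limma fitted surgery and hairpin to all 12 arrays. A fit with 1 mean per group gave the TAC, the sham and the difference contrasts. P-values were adjusted by Benjamini-Hochberg over all 15118 probes, and a gene was called at an adjusted p under 0.05. Values are log2 differences, shUhrf1 minus shControl, ± SE. Where a gene was above background on no array of a side, its fold is a bound: the brighter mean against a floor, which on each array is the dimmest detected signal or the gene's own signal if that is brighter. The number of arrays limits the precision. Fits were checked on simulated data. The exact permutation test planned for Uhrf1 is not given, since its sham values are background readings. Counts over genes above background on all 6 sham arrays were added after seeing the data. The alternatives, given in the closing section, changed scaling, background, filter, design, moderation, probe choice and arrays.

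The members, gene lists and tests were chosen with earlier results of these data known. Genes are named by a fixed rule: preset genes, the 15 largest rises and 15 largest falls with the same sign in both surgeries, the changes most alike in both surgeries, up to 4 leading members per list, and the 6 genes with the smallest p where fewer than 6 passed. Xlr4a, Mov10l1, Cox7b, Mccc1, Sucla2, Max, Cdh5, Nr1d2, Socs4 and the mitochondrially encoded genes that did not pass were named after their values were seen, as were the lists of the mitochondrial genome and of the citric acid cycle.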

Additional observations from a re-analysis of the deposited data

Results flagged for a closer look

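Probes with no gene name here, which the comparisons above do not use, also differed between the hairpins. Of 2017 such probes tested, 81 were higher and 30 lower in shUhrf1 than in shControl at a limma adjusted p under 0.05, averaged over both surgeries. Of all 15118 probes tested, named or not, 508 were higher and 154 lower. The largest rise was that of ILMN_1245504, with a mean log2 intensity of 7.16 on shUhrf1 arrays and 5.76 on shControl arrays, a difference of 1.40 ± 0.12 (SE, limma adjusted p = 0.000125). Its difference was 1.31 after TAC and 1.49 in sham. The largest fall was that of ILMN_2698004, at -1.19. What these probes detect was not tested.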

How the results depend on the processing

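Among the 256 rises and 88 falls, no gene that was called again under an alternative had turned its direction. Of these calls, 131 of 344 were kept with the hairpin alone in the fit, 211 with median scaling, 263 with probes detected on all 12 arrays, 270 in the authors' value table, and between 170 and 271 when 1 array was left out. The cause of these changes was not tested, except that settings with fewer arrays or another number of probes also change the adjustment.

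For the averaged effect, 114 genes were higher and 17 lower with the hairpin alone in the fit. Falls numbered 4 with median scaling, 162 with no background correction, 157 in the authors' value table and 148 with an intensity trend and robust moderation. Leaving out 1 array at a time gave 139 to 259 higher and 30 to 75 lower. Genes lower with groups apart in both surgeries numbered 9 with median scaling.

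For the sham contrast, genes higher numbered 1 with no background correction, 1 with probes detected on all 12 arrays, 0 with only the 6 sham arrays, 12 in the authors' value table (and 12 lower), 21 with trend and robust moderation (and 2 lower) and 38 with array weights (and 19 lower), and 3 were lower with no filter on dim probes. Leaving out 1 array gave 1 to 6 higher and 0 lower. For the TAC contrast, 257 were higher and 45 lower with median scaling, 29 and 26 with no filter, 66 higher with only the 6 TAC arrays, 218 higher with trend and robust moderation and 71 lower with probes detected on all 12 arrays. Leaving out 1 array gave 5 to 182 higher and 1 to 227 lower.

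Of the genes higher after TAC, the percent with the same sign in sham was 96.6 with no filter and 87.2 to 100 with 1 array left out. Of the genes lower after TAC it was 35.6 with median scaling, 61.5 with no filter, 57.7 with probes detected on all 12 arrays and 0 to 71.4 with 1 array left out, where few genes remained. The difference between the hairpin effects passed for 1 gene in the positive direction with no filter, and for 0 to 3 in the positive and 0 to 95 in the negative direction with 1 array left out. Uhrf1 differed by -0.85 with 1 mean per group, where it passed (limma adjusted p = 0.0399), and by -0.96 to -0.64 with 1 array left out. It was not tested with probes detected on all 12 arrays.

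Arrays of the same replicate number deviated together with r between -0.107 and 0.204. The values were 0.053, 0.156 and 0.204 in TAC and -0.021, -0.031 and -0.107 in sham. So few values cannot decide whether the numbers pair the arrays, and the labels do not say. With a replicate block the averaged effect had 185 genes higher and 54 lower. With a replicate block within each surgery, of 6 pairs, it had 151 higher and 30 lower, sham arrays had 0 higher, and the difference between effects passed for 1 gene in the negative direction.

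Values that changed sign belong to genes with no call. With median scaling, where the median of all genes also moved to 0.14, Dnmt1 differed by 0.12, Myh6 by 0.21, Col1a1 by 0.036 and Fhod1 by 0.10. Myh6 came to 0.0012 with array weights and to 0.14 as the mean of its probes. With 1 array left out the values ran from -0.148 to 0.024 for Dnmt1, -0.041 to 0.050 for Myh6, -0.258 to 0.012 for Acta1, -0.307 to 0.048 for Col1a1, -0.187 to 0.048 for Fhod1 and -0.247 to 0.088 for Col6a2.

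Depth of signal limits the account at the dim end: Uhrf1 was above background on no sham array and 20 of 24 germline genes on no array at all. For 42 of the 256 rises at least 1 group had no array above background, and there the size of a difference is a bound or unknown.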
